A study of Mus musculus with 4 samples.

Results

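Pi16 fibroblasts are the fibroblasts of the thymus that carry the marker set Pi16, Fndc1, Pcolce2 and Sfrp2. They were followed here in 4 droplet-based 3′ single-cell RNA-seq libraries of CD45- thymic stroma from untreated 6-month-old C57BL/6 mice. A cell was a member when it had more than 1000 detected genes, under 20% mitochondrial UMIs (unique molecular identifiers, the counted molecules), at least 3 UMIs of the lineage genes Pdgfra, Col1a1 and Col1a2 together, and none of Epcam, Pecam1 or Ptprc. It also needed at least 3 UMIs of the marker set, more than it had of Postn, Fcgr2b, Ltc4s and Gfra2 (the set of Postn fibroblasts) or of Bmper, Inmt, Penk and Gdf10 (the set of Bmper fibroblasts). The rule found 432 members among 2077 gated fibroblasts, 10245 cells past the limits on genes and mitochondrial UMIs, and 13981 called barcodes. The same rule with the sets exchanged gave 572 Postn and 748 Bmper fibroblasts, and 325 gated fibroblasts fell in no gate.

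The 2 WT libraries were labelled as mock mice of the Foxn1LacZ experiment with a wild-type genotype, and the 2 Z/Z libraries as mutant mice, which carry 2 copies of the Foxn1 LacZ allele. Foxn1 is the gene on which thymic epithelium depends for its identity, and this allele lowers its activity; the question is how stroma then differs. The protocol describes pools of 10 to 15 thymi and names female mice, whereas the sample characteristics give males. Whether the libraries of a group came from separate pools is not stated, so p-values measure only the spread between libraries. Members had 0 Foxn1 UMIs in each library. Over all called barcodes Foxn1 stood at 44.1 and 37.9 CPM (counts scaled to a common library total) in WT and 23.4 and 34.1 CPM in Z/Z, a level that also depends on the share of epithelial cells.

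Fibroblasts that express Pi16 lie in the adventitia, the connective tissue sleeve around larger vessels, and in the fascia and capsule of many organs. They are known for Dpp4, Cd34 and Ly6a (Sca-1), for a matrix rich in fibrillin and elastic fibre proteins, and as a source from which more specialised fibroblasts can arise. In the thymus, capsular and septal fibroblasts surround the lobules and supply growth factors such as FGF7 and FGF10 to the epithelium.

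WT 1 held 127 members, WT 2 held 21, Z/Z 1 held 159 and Z/Z 2 held 125. Their UMIs summed to 2245341, 427244, 2553285 and 1713427 in the same order, with medians per member of 16420, 19620, 16211 and 13533 UMIs. WT 2 is the thin library, and each value of it rests on 21 cells. Called barcodes were shared by WT 1 and WT 2 (202 barcodes) and by Z/Z 1 and Z/Z 2 (249), but by at most 6 between genotypes. Whether each genotype was processed or sequenced as a set of its own is not stated. The part of such sets in the differences between genotypes was not tested. Of the 21 members of WT 2, 10 had barcodes that were also called in WT 1, with 26.5 to 45.1 times the UMIs of the WT 1 copy. The 3 such members of WT 1 held only 1462 to 1632 UMIs each. RNA of empty droplets was put at 1.26% to 5.41% of the members' UMIs from thymocyte markers.

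The 4 genes of the marker set are described without a test, because they chose the cells. Pi16, a secreted peptidase inhibitor family protein, was at 4653 and 4535 CPM in the WT libraries and at 2614 and 2906 CPM in Z/Z. Fndc1 was at 922 and 1077 CPM in WT and at 617 and 766 CPM in Z/Z. Pcolce2, an enhancer of procollagen C-proteinase, was at 999 and 939 CPM against 768 and 680 CPM. The Wnt-binding protein gene Sfrp2 was at 167 and 128 CPM against 146 and 189 CPM. Levels of Pi16, Fndc1 and Pcolce2 did not overlap between genotypes, which also held for 48% of all genes tested, and those of Sfrp2 did. At least 3 of the 4 markers were seen in 390 of the 432 members.

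The UMIs of the marker set had a median per member of 105 and 91 in WT against 47 and 44 in Z/Z. Few cells lay near the limit of 3 UMIs. Only 17 members held 3 to 5 UMIs of the set, and 8 gated fibroblasts were left outside with 2. The limit set by the other sets left out more, since 150 had 3 or more but not more than of another set. These were 24 and 4 cells in WT, beside 127 and 21 members, and 67 and 55 cells in Z/Z, beside 159 and 125 members. Of the lineage genes, Pdgfra was at 230 and 392 CPM in WT and 418 and 382 CPM in Z/Z, Col1a1 at 1097 and 1138 against 528 and 731 CPM, and Col1a2 at 2264 and 2398 against 1535 and 1669 CPM. In the GENCODE annotation of GRCm38, Pi16 lies at chr17:29317680-29330593 on the plus strand, Fndc1 at chr17:7738569-7827302 on the minus strand, Pcolce2 at chr9:95637601-95698096 and Sfrp2 at chr3:83766321-83774316, both on the plus strand.

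The label was set beside 34 other genes of adventitial fibroblasts. This list was chosen with earlier results of these data known, so it is no independent check. Of the 34, 33 were higher in Pi16 fibroblasts than in Postn and Bmper fibroblasts of every library, the exception being Wnt2 at no more than 7.95 CPM. The same held for 20.0% of all 6631 genes with a mean of at least 20 CPM. Dpp4, the surface peptidase CD26, was at 268 to 557 CPM in Pi16 fibroblasts against at most 11.4 CPM in Postn and 20.8 CPM in Bmper fibroblasts. Ly6c1 was at 488 to 775 CPM in the members against at most 108 CPM in either other gate. Cd34 and Ly6a marked all 3 gates, with Cd34 at 671 to 1056 CPM in the members, 361 to 568 CPM in Postn and 265 to 472 CPM in Bmper fibroblasts. These comparisons of gates are counts over library totals and a description only, since the gates were drawn on the same cells.

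Outside the marker sets, the genes that set the members apart most in every library included carbonic anhydrase-related Car8 (295 to 414 CPM against at most 11.6 CPM in the other gates), the neutral sphingomyelinase Smpd3 (363 to 683 CPM against at most 19.9 CPM) and Limch1 (263 to 642 CPM against at most 6.56 CPM). The scavenging chemokine receptor Ackr3, which takes up CXCL12, was at 890 to 988 CPM against at most 68.6 CPM. Opcml, a cell adhesion molecule, was at 2198 to 2915 CPM against at most 192 CPM. Several encode secreted or surface signals. Fibronectin (Fn1) was at 1444 to 1649 CPM against at most 125 CPM, the guidance ligand gene Sema3d at 96.8 to 125 CPM against at most 4.62 CPM, and Sema3e at 248 to 771 CPM against at most 50.7 CPM.

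The proprotein convertase gene Pcsk6 (942 to 1251 CPM), the adhesion receptor gene Adgrd1 (1680 to 1815 CPM), Igfbp6 (1069 to 1700 CPM), Cd248 (542 to 653 CPM) and Anxa3 (554 to 987 CPM) belong to the same group. So do Edn1 (37.8 to 137 CPM), the endothelin 1 gene, and Tek (165 to 237 CPM), the angiopoietin receptor TIE2, both better known from endothelium. Endothelial markers beside them summed to 165 and 118 CPM in WT members and 189 and 204 CPM in Z/Z members. The Z/Z 1 members held UMIs of all 14 such markers, and the Z/Z 2 members of 12. Fewer were seen among WT members, with 9 for the first library and 4 for the thin second one. Ramp2 was at 110 to 164 CPM, and each of the others was at 8.62 CPM or less in every library. The part of endothelial RNA in these levels was not tested. The retinaldehyde dehydrogenase gene Aldh1a3, Sbsn, Cmah and Ptprj complete the 20 genes.

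The genes lowest in the members relative to both other gates were led by Ptn, the growth factor pleiotrophin, at 5.14 to 35.8 CPM against at least 1210 CPM in every other gate and library. Lsamp, an adhesion molecule related to Opcml, was at 15.4 to 67.6 CPM against at least 1533 CPM. The netrin receptor gene Unc5c reached at most 10.9 CPM in the members and the chemokine gene Cxcl14 at most 6.63 CPM, against at least 272 and 123 CPM elsewhere. Lin7a, Ifitm1, Rgs16 and Tmem176a were the other 4.

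**Figure D1:**
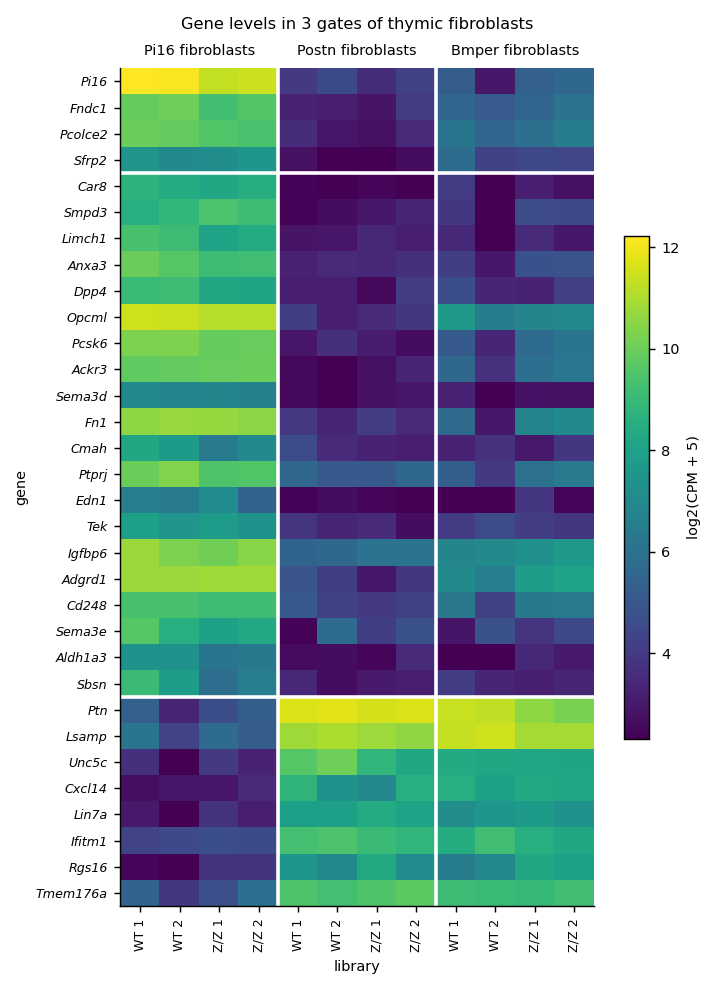
Levels of 32 genes as log2(CPM + 5) (colour) in Pi16, Postn and Bmper fibroblasts of the 4 libraries (columns); rows are the 4 genes of the marker set, the 20 genes highest in Pi16 fibroblasts and the 8 lowest. In every library Car8 is at 295 CPM or more in Pi16 fibroblasts and Ptn at 35.8 CPM or less.

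Among members of the same library, the genes that varied most between cells were, by mean rank over the 4 libraries among 5567 genes, Mt1, Igfbp5, Gm42418, Ptx3, Gsn, Tnfaip6, Mt2, Sntg1, Ext1 and Ugdh. Mt1, a metallothionein that binds zinc and copper, was seen in 95.2% to 98.7% of members. Igfbp5, which binds insulin-like growth factors, was concentrated. The top decile of members by its UMIs held 47.0% and 77.6% of its UMIs in WT and 65.0% and 58.9% in Z/Z. Ptx3, the long pentraxin of innate immunity, was concentrated alike, with 50.1% to 57.7% of UMIs in its top decile of members, and it was seen in 63.0% to 80.5% of members. Tnfaip6 binds the hyaluronan that Ugdh provides precursors for, and its top decile of members held 38.4% to 48.4% of its UMIs. The scaffold gene Sntg1 was seen in 42.5% and 52.4% of WT members and 87.4% and 83.2% of Z/Z members.

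Pi16 fibroblasts made up 28.8% of gated fibroblasts in WT 1 (exact binomial 95% interval 24.6% to 33.3%, counting error only) and 16.4% in WT 2 (10.5% to 24.0%). Z/Z 1 had 15.7% (13.5% to 18.1%). Z/Z 2 had 25.3% (21.5% to 29.4%). The WT mean was 22.6% ± 8.76 (SD, n = 2), the Z/Z mean 20.5% ± 6.80 (SD, n = 2), and the groups overlapped. The exact two-sided permutation p was 0.667, where 2 against 2 libraries cannot go below 0.3333. The difference of -2.11 percentage points turned to 4.09 points without WT 1 and to 2.70 points without Z/Z 1. The other gates moved in opposite directions without overlap, from 45.3% ± 3.29 to 19.2% ± 4.80 for Postn and from 17.8% ± 4.65 to 43.9% ± 1.44 for Bmper fibroblasts (SD, n = 2 each, exact permutation p = 0.3333 for each). All shares depend on digestion, depletion and sorting.

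To ask which genes differed in the members between genotypes, UMIs were summed per library and the sums tested with edgeR's quasi-likelihood test. At a Benjamini-Hochberg adjusted p of 0.05, 152 of 9831 genes were higher in Z/Z (1.55%) and 86 were lower (0.875%), 2.42% in all. The median log2 fold change of all genes was 0.00. Levels did not overlap between the genotypes for 48% of all genes tested, so non-overlap alone separates little. Fold changes are given as log2 of Z/Z relative to WT with standard errors (SE), and CPM values are scaled with TMM factors.

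Chemokine genes were among those that rose. Cxcl13, the chemokine that draws B cells through CXCR5, was at 17.4 and 0 CPM in WT and at 429 and 346 CPM in Z/Z. The fold change was 4.81 ± 0.41 (SE, edgeR adjusted p = 0.000417), and the 36 UMIs of WT 1 came from 11 members against 61 and 44 members with a UMI in Z/Z. Cxcl2, a neutrophil attractant acting on CXCR2, was at 38.2 and 7.85 CPM against 237 and 364 CPM (3.30 ± 0.38, edgeR adjusted p = 0.00191). Its relative Cxcl1 was at 335 and 356 CPM against 890 and 901 CPM (1.38 ± 0.16, edgeR adjusted p = 0.00234). Both Z/Z libraries stood above both WT libraries in each of these 3 genes, which was a condition for naming them. Cxcl1 was already abundant in WT, though 1 member held 63.2% of its WT 2 UMIs. In Bmper fibroblasts Cxcl1 also rose, by 1.39 (edgeR adjusted p = 0.0370). Cxcl2 (2.15, edgeR adjusted p = 0.0650) and Cxcl13 (2.37, edgeR adjusted p = 0.132) did not pass there, though their estimates were larger. Neither was shown to differ between the members and Bmper fibroblasts (edgeR interaction of gate and genotype, adjusted p = 0.479 and 0.754).

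Hp, Saa3 and Il6 were also higher in Z/Z. Hp, which encodes the haemoglobin-binding protein haptoglobin, was at 12.6 and 70.6 CPM in WT and 565 and 475 CPM in Z/Z (4.27 ± 0.50, edgeR adjusted p = 0.00234). It was seen in 106 and 58 Z/Z members, and 1 member held 85.2% of its WT 2 UMIs. In Bmper fibroblasts Hp rose by 5.06 (edgeR adjusted p = 0.00441). Saa3, a serum amyloid A, was at 1.45 and 0 CPM against 57.9 and 84.6 CPM (5.77 ± 0.52, edgeR adjusted p = 0.000542), but its UMIs came from only 5 and 9 members of the Z/Z libraries. The cytokine gene Il6 was at 117 and 81.1 CPM against 358 and 318 CPM (1.70 ± 0.21, edgeR adjusted p = 0.00318), and 1 member held 61.3% of its WT 2 UMIs.

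Of 19 chemokine and chemokine receptor genes tested, 4 rose (Cxcl1, Cxcl2, Cxcl9 and Cxcl13), beside 1.55% of all genes, and 1 fell, beside 0.875%. The median log2 fold change was 0.33 beside 0.00 over all genes. Cxcl9, a ligand of CXCR3, was at 7.75 and 5.23 CPM against 40.2 and 31.1 CPM (2.30 ± 0.40, edgeR adjusted p = 0.0171), with 39.3% and 37.0% of its Z/Z UMIs in the member that held most. Its call was lost without Z/Z 1, under DESeq2, without shared barcodes and on thinning to 5000 UMIs. Ackr4, a scavenger of CCL19, CCL21 and CCL25, was at 26.6 and 15.7 CPM in WT and 1.36 and 2.03 CPM in Z/Z, and fell by 3.75 ± 0.58 on the log2 scale (edgeR adjusted p = 0.00882). Cxcl12, Ccl2, Ccl7, Ccl11 and Ccl19 did not pass the threshold. Of 27 interferon-stimulated genes none passed, with a median of 0.06, nor did any of 21 genes of MHC class I presentation, with a median of 0.01. Over all genes 2.42% passed in either direction. Unadjusted p-values under 0.05 numbered 1560 over all genes.

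Of 24 immediate-early genes, which respond within minutes to stimulation and to tissue dissociation, 3 rose, beside 1.55% of all genes, and none fell (median 0.29). The counts of the lists that follow are to be read against the same 1.55% higher and 0.875% lower. The nuclear receptor gene Nr4a1 was at 87.6 and 49.7 CPM in WT and 269 and 307 CPM in Z/Z (1.94 ± 0.24, edgeR adjusted p = 0.00318). Its relative Nr4a2 was at 2.90 and 2.62 CPM against 46.6 and 27.1 CPM (3.67 ± 0.52, edgeR adjusted p = 0.00618), and lost its call when cells were thinned to 5000 UMIs (edgeR adjusted p = 0.269). Junb was at 944 and 839 CPM against 1635 and 1610 CPM (0.86 ± 0.15, edgeR adjusted p = 0.0202), and lost its call without Z/Z 1 (edgeR adjusted p = 0.0607). Fos (0.52) and Egr1 (0.18) did not pass. Of 13 glucocorticoid and stress response genes, Mt1 (1.03 ± 0.16, edgeR adjusted p = 0.00868) and the EGF receptor inhibitor gene Errfi1 (0.97 ± 0.15, edgeR adjusted p = 0.0104) rose and none fell. The glucocorticoid targets Fkbp5, at -0.31, and Tsc22d3, at 0.11, did not pass. How long each library was digested is not stated, and its part in these differences was not tested.

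Sequences before the transcription starts were read for genes among chemokines, cytokines and immediate-early genes that were picked because they rose. They are shown for 4 genes: the 3 with the NF-kappaB letters, and Nr4a1 as 1 of the 2 genes, with Nr4a2, that hold 4 matches of the other motif. The 250 bases before the RefSeq start (GRCm38.p6) were read for 10 genes, namely Il6, Gas6, Tgfb1, Cxcl1, Cxcl2, Cxcl9, Cxcl13, Junb, Nr4a1 and Nr4a2. On either strand, the NF-kappaB letters, GGGA and TTCC with any 2 bases between them, occur in Il6, Cxcl1 and Cxcl2, 3 of 10, and in 1.21% of all 32851 promoters of this length. The core TGACG of the cAMP response element occurs in 5 of 10 (Il6, Cxcl1, Junb, Nr4a1 and Nr4a2), and in 17.8% of all promoters. Capitals mark the NF-kappaB letters in the upper 3 sequences, where the forward and reverse matches of Cxcl1 and Cxcl2 overlap, and the TGACG core, read on the minus strand, in Nr4a1. Windows are chr5:30012864-30013113 for Il6, chr5:90890995-90891244 for Cxcl1, chr5:90903649-90903898 for Cxcl2 and chr15:101266596-101266845 for Nr4a1, all on the plus strand. The Nr4a1 start lies within the gene as GENCODE draws it (chr15:101254269-101274795). The motifs were picked with the results known, and a match is letters in a window, not a shown binding site.
Il6: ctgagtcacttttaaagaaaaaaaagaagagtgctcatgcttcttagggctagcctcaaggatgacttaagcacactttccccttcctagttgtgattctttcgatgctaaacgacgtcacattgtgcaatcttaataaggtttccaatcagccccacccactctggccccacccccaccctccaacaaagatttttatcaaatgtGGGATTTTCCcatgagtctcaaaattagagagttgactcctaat
Cxcl1: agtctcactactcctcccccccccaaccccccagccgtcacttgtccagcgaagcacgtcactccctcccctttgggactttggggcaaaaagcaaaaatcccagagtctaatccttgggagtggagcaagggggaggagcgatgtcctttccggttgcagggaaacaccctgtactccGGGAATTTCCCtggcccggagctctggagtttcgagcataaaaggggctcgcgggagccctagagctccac
Cxcl2: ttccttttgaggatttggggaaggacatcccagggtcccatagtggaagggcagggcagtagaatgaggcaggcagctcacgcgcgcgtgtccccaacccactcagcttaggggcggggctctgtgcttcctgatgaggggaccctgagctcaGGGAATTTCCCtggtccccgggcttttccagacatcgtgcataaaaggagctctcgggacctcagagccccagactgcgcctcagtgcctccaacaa
Nr4a1: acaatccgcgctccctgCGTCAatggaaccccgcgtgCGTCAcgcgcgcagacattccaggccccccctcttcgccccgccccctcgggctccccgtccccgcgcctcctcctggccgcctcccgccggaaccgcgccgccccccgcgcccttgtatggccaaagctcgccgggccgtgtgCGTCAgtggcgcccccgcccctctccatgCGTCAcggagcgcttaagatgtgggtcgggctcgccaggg

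The remaining genes of the 12 with the smallest p among those higher in Z/Z were of mixed function. Sult1e1, which sulfates and so inactivates oestrogens, was at 12.1 and 39.2 CPM in WT and 301 and 248 CPM in Z/Z (3.90 ± 0.38, edgeR adjusted p = 0.00101). Por, the electron donor of microsomal cytochromes P450, was at 83.3 and 75.8 CPM against 267 and 311 CPM (1.84 ± 0.20, edgeR adjusted p = 0.00158). Tmtc2, a protein of the endoplasmic reticulum, was at 182 and 196 CPM against 941 and 785 CPM (2.20 ± 0.18, edgeR adjusted p = 0.000417). Por and Tmtc2 were spread over many cells in Z/Z, with 137 and 102 members holding a Por UMI and 116 and 91 a Tmtc2 UMI. In WT 2, 1 member held 57.3% of the Tmtc2 UMIs. Sult1e1 was seen in 62 and 40 Z/Z members, but in only 4 and 3 WT members. There, 1 member held 72.0% of its UMIs in WT 1 and 1 member 80.0% in WT 2.

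Gm12840, a lincRNA at chr4:117700188-117700923 of GRCm38, was at 376 and 340 CPM in WT and 1555 and 1759 CPM in Z/Z (2.20 ± 0.17, edgeR adjusted p = 0.000396). In the other gates 1.69% of genes passed for Postn (0.874% higher, 0.814% lower) and 0.402% for Bmper fibroblasts (0.231% higher, 0.171% lower). Gm12840 rose in both, by 2.43 in Postn and 1.57 in Bmper fibroblasts (edgeR adjusted p = 0.00176 and 0.0425). Olfr1033, an olfactory receptor locus, rose by 2.51 ± 0.25 in the members (edgeR adjusted p = 0.00104), 1.89 in Postn and 2.49 in Bmper fibroblasts (edgeR adjusted p = 0.0458 and 0.00471). In empty droplets too both were higher in Z/Z. There Gm12840 was at 30.9 and 9.5 CPM in WT and 247 and 262 CPM in Z/Z, and Olfr1033 at 10.5 and 11.2 against 87.1 and 46.0 CPM. The part of free RNA was not tested beyond subtracting the empty-droplet share, under which both calls were kept. Gm42418, a locus that overlaps ribosomal RNA sequence, was at 11076 and 13272 CPM in WT and 40210 and 31373 CPM in Z/Z (1.56 ± 0.16, edgeR adjusted p = 0.00109). Its level in empty droplets was 85473, 71236, 127532 and 36622 CPM in WT 1, WT 2, Z/Z 1 and Z/Z 2. Camk1d, a calmodulin-dependent kinase gene, behaved alike, at 750 and 798 CPM against 2866 and 2084 CPM in members and at 2608 to 5825 CPM in empty droplets. Both kept their calls when the empty-droplet share was subtracted, and when each shared barcode was kept once, in the library with more of its UMIs. They lost them without the barcodes found in more than 1 library, a removal that left WT 2 with 11 of its 21 members.

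Part of the adventitial programme fell. Of 33 genes tested, 8 were lower in Z/Z (beside 0.875% of all genes), none was higher, and 24 did not overlap between genotypes (beside 48% of all genes). The median log2 fold change was -0.31 beside 0.00. Fibrillin 1 (Fbn1), the core of microfibrils, was at 2178 and 2058 CPM in WT and 1217 and 1211 CPM in Z/Z, and fell by 0.80 ± 0.15 (edgeR adjusted p = 0.0202). Cd55, which protects cells from complement, was at 713 and 612 CPM against 361 and 350 CPM (-0.91 ± 0.17, edgeR adjusted p = 0.0202). Dpp4 was at 489 and 567 CPM against 309 and 274 CPM (-0.85 ± 0.18, edgeR adjusted p = 0.0313).

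Aldh1a3 (-1.17), Efhd1 (-1.03), Limch1 (-0.96) and Heg1 (-0.77) were the others of this list at moderate size, and Gap43, a growth cone protein, fell most, from 43.1 and 36.6 to 3.62 and 8.12 CPM (-2.86 ± 0.44, edgeR adjusted p = 0.00868). Gap43 is also 1 of 10 Schwann cell markers, whose summed level was 57.2 and 41.1 CPM in WT members against 12.7 and 21.2 CPM in Z/Z members. Of these Erbb3 was at 7.95 and 5.14 against 3.05 and 0.663 CPM of library totals, Gfap and Sox10 were at 0 in every library, and all 14 Gap43 UMIs of WT 2 came from 1 member. The part of Schwann cell RNA was not tested. Dpt (-0.58), Anxa3 (-0.60) and Cd248 (-0.18) did not pass, and Smpd3 (0.63) and Procr (0.72) pointed the other way without passing. Of the 8 genes, Fbn1, Dpp4, Cd55, Efhd1 and Heg1 lost their calls without Z/Z 1 and again without Z/Z 2, and Limch1 and Aldh1a3 without Z/Z 1, while their direction held. Since the members were selected on Pi16, a related gene, and the marker set was lower in Z/Z members, the programme and the rule are not independent.

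**Figure D2:**
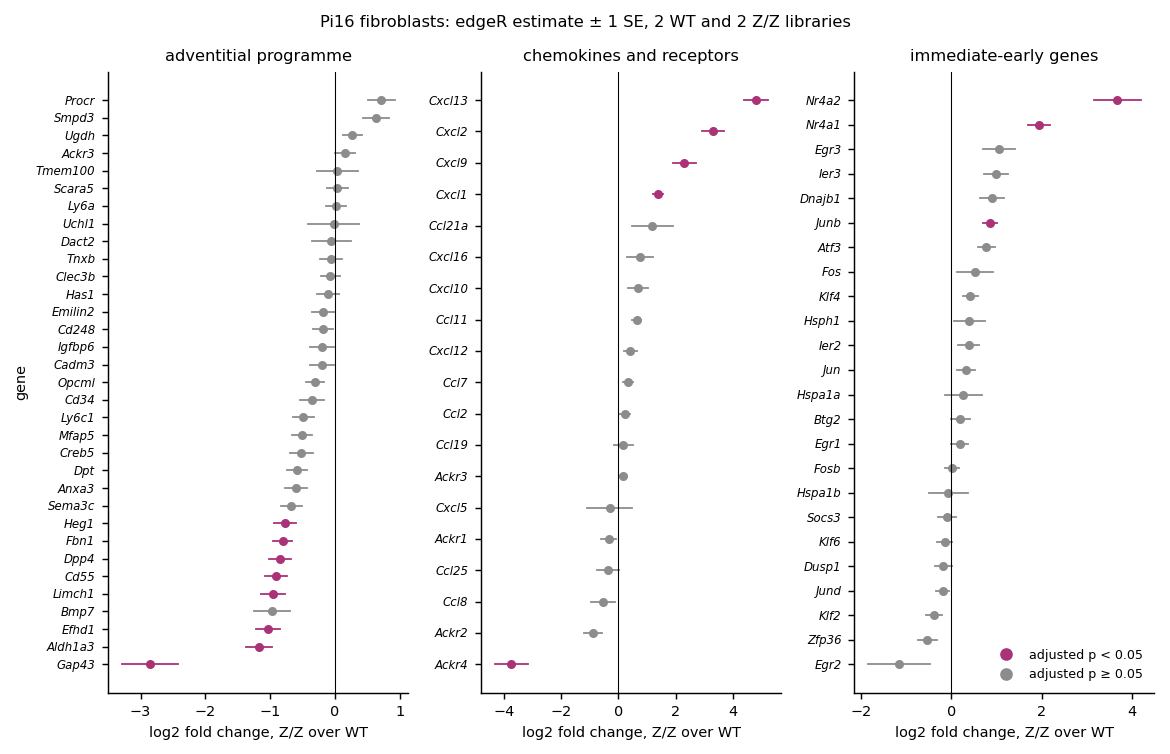
Log2 fold change, Z/Z over WT, in Pi16 fibroblasts (points, edgeR estimate; bars, ± 1 SE; 2 libraries per group) for every tested gene of 3 lists, coloured by whether the adjusted p was under 0.05. In the adventitial programme 8 of 33 genes pass, all below 0, while 4 chemokine genes and 3 immediate-early genes pass above 0 and Ackr4 passes below 0.

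Structural matrix genes moved in both directions. Of 22 genes of collagens and their processing, Col3a1 (-0.75 ± 0.16, edgeR adjusted p = 0.0352) and Col5a2 (-0.96 ± 0.20, edgeR adjusted p = 0.0290), chains of fibrillar collagens, fell. The basement membrane chains Col4a1, at 232 and 228 CPM against 492 and 582 CPM, and Col4a2, at 71.6 and 81.1 CPM against 165 and 196 CPM, rose by 1.22 ± 0.18 and 1.26 ± 0.21 (edgeR adjusted p = 0.00794 and 0.0169). Pcolce, which enhances procollagen cleavage, rose by 1.15 ± 0.26 (edgeR adjusted p = 0.0444), a call lost without Z/Z 2. Of 18 elastic fibre genes only Fbn1 passed, and elastin (Eln, -0.48) and Mfap5 (-0.51) did not. Col3a1 and Col5a2 both lost their calls without Z/Z 2 and Col3a1 also without Z/Z 1, whereas Col4a1 kept it in each fit that left out a library.

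Of 16 proteoglycan and hyaluronan genes, 2 fell and 1 rose. The gene that rose was the syndecan gene Sdc4 (0.91 ± 0.21, edgeR adjusted p = 0.0444), which kept its call in 7 of 19 alternatives and, of the 4 fits that left out a library, only in that without WT 2. Aspn, the small leucine-rich proteoglycan asporin, was at 413 and 452 CPM in WT and 125 and 191 CPM in Z/Z (-1.46 ± 0.22, edgeR adjusted p = 0.00868). The glypican gene Gpc6 was at 2176 and 2364 CPM against 1124 and 1151 CPM (-0.996 ± 0.149, edgeR adjusted p = 0.00868). Of 23 genes of matrix proteases and their inhibitors, the aggrecanase genes Adamts4 (1.53 ± 0.23, edgeR adjusted p = 0.00868) and Adamts9 (2.15 ± 0.44, edgeR adjusted p = 0.0291) rose and none fell. The Adamts9 call was lost under DESeq2 and without shared barcodes. Of 12 complement genes, C4b (1.07 ± 0.23, edgeR adjusted p = 0.0379) and Clu (2.67 ± 0.52, edgeR adjusted p = 0.0226) rose and Cd55 fell. C4b lost its call without Z/Z 1 and Clu without WT 1, and Clu kept it in 12 of 19 alternatives.

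The genes with the smallest p among those lower in Z/Z began with Syt1, Bmp3 and Ntn4. Syt1, the calcium sensor of synaptic vesicles, was at 108 and 52.3 CPM in WT and 2.26 and 6.09 CPM in Z/Z (-4.48 ± 0.45, edgeR adjusted p = 0.00104). Bmp3, a BMP family member that opposes other BMPs, was at 103 and 83.7 CPM against 2.71 and 11.5 CPM (-3.89 ± 0.43, edgeR adjusted p = 0.00158). Ntn4, the laminin-binding netrin 4, was at 469 and 379 CPM against 131 and 96.1 CPM (-1.91 ± 0.21, edgeR adjusted p = 0.00158). In empty droplets Syt1 stood at 337 and 153 CPM in the WT libraries, above its level in their members, and at 57.8 and 81.4 CPM in the Z/Z libraries. The part of free RNA in the Syt1 difference was not tested beyond subtracting the empty-droplet share, under which the call was kept.

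Rgs6, a GTPase activator for G protein subunits, fell from 209 and 358 to 22.1 and 53.5 CPM (-2.90 ± 0.38, edgeR adjusted p = 0.00372), with 51.8% of its WT 2 UMIs in 1 member. Inpp4b, a phosphoinositide phosphatase gene, fell from 200 and 301 to 4.52 and 31.1 CPM (-3.90 ± 0.53, edgeR adjusted p = 0.00493). Sbsn (-2.43), Pamr1 (-1.50), the glucosylceramide synthase gene Ugcg (-1.28), the chemerin receptor gene Gpr1 (-2.23) and the protein kinase C substrate gene Marcks (-1.06) were the other 5. The fold changes of all 24 of these genes, 12 higher and 12 lower, kept their direction when any 1 library was left out. The genes were picked for the smallest p among called genes without overlap, so this is no independent support.

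**Figure D3:**
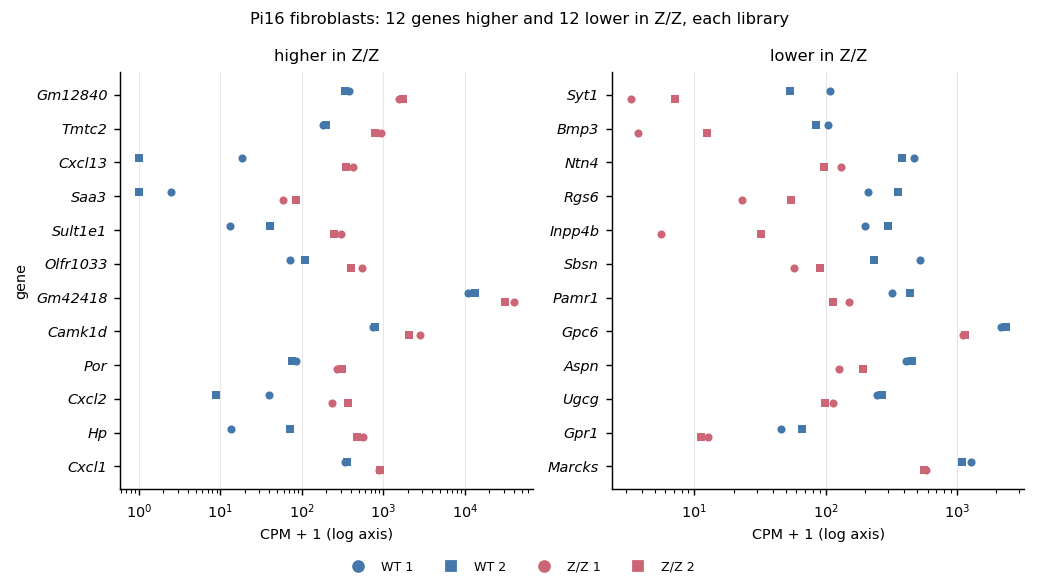
CPM + 1 (log axis) of the 12 genes higher and the 12 lower in Z/Z with the smallest p, in each library (circles, replicate 1; squares, replicate 2; blue, WT; red, Z/Z). Only genes without overlap between genotypes were eligible, so their lack of overlap is no result. Cxcl13 goes from at most 17.4 CPM in WT to at least 346 CPM in Z/Z and Gpc6 from at least 2176 to at most 1151 CPM.

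Growth factors for thymic epithelium and progenitors were followed as a panel of 9. Fgf7, the ligand of FGFR2b on epithelium, was at 34.9 and 47.1 CPM in WT and 118 and 96.8 CPM in Z/Z, and rose by 1.49 ± 0.25 (edgeR adjusted p = 0.0160). The call was kept when any 1 library was left out, but lost without shared barcodes and when cells were thinned to 5000 UMIs. Fgf10, a ligand of the same receptor, was at 109 and 144 CPM against 206 and 229 CPM, without overlap and without passing (0.83, edgeR adjusted p = 0.0685). The level of both was higher in Bmper fibroblasts, where Fgf7 was at 74.7 to 146 CPM of library totals. Bmp4 was at 52.3 and 44.5 CPM against 19.4 and 33.2 CPM (-0.95, edgeR adjusted p = 0.148).

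Kitl was at 85.7 and 105 CPM against 151 and 99.5 CPM, and Flt3l at 19.8 and 13.1 against 9.04 and 16.2 CPM, each overlapping between genotypes. Ptn (5.23 to 35.9 CPM), Mdk (2.62 to 15.6 CPM) and Angptl4 (39.2 to 77.9 CPM) overlapped too, and Fgf21 had too few UMIs to be tested. Of 30 other ligand genes, Il6, Gas6 (18.9 and 18.3 against 50.2 and 101 CPM; 1.98 ± 0.38, edgeR adjusted p = 0.0217) and Tgfb1 (9.68 and 5.23 against 32.1 and 33.2 CPM; 1.90 ± 0.39, edgeR adjusted p = 0.0299) rose, and Pdgfc fell (-1.68 ± 0.35, edgeR adjusted p = 0.0315). Tgfb1 lost its call without Z/Z 1 and without Z/Z 2, Pdgfc without WT 1 and without Z/Z 1, and Gas6 without Z/Z 2, whereas Il6 kept it in all 19 alternatives. Of 23 Wnt pathway genes only Rspo1 passed, with both WT libraries (at most 6.78 CPM) under both Z/Z libraries (at most 36.6 CPM; 2.32 ± 0.48, edgeR adjusted p = 0.0313), and its call was lost without Z/Z 2. Of 15 genes of adipocyte progenitors and adipocytes, Fabp4 (2.24), F3 (1.27) and Apoe (1.28) rose and Zfp423 (-1.39) fell. F3 and Zfp423 kept their calls in only 1 of 4 fits that left out a library (F3 without WT 2, Zfp423 without WT 2), Fabp4 lost its call without Z/Z 1, and Apoe without Z/Z 2 and when empty-droplet RNA was subtracted.

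Of 13 transcripts of the mitochondrial genome, mt-Atp8 fell (-0.92 ± 0.19, edgeR adjusted p = 0.0331; lost without Z/Z 2) and 12 did not pass, and the list had a median of -0.26. The median share of mitochondrial UMIs per member was 2.24% and 2.20% for WT against 1.77% and 1.93% for Z/Z. None of 6 tested genes of the cell cycle passed.

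Markers of other cell types were read in the same sums. Of 10 mesothelial markers tested (12 listed) 7 passed, each higher in Z/Z. Their summed level was 127 and 190 CPM in WT members and 357 and 676 CPM in Z/Z members. Upk3b was at 0 in both WT libraries and at 38.0 and 104 CPM in Z/Z (edgeR adjusted p = 0.00438), from 3 and 8 members. Lrrn4, Muc16 and Gpm6a were likewise at 0 in WT. At least 2 UMIs over 7 such markers were found in 0, 0, 4 and 6 members of WT 1, WT 2, Z/Z 1 and Z/Z 2, and 9 of these 10 cells had no Pi16 UMI. Without the 10 cells, chosen after the data were seen, 128 genes were higher and 77 lower, and all 24 genes named above kept their calls (Saa3 at 5.83 and Cxcl13 at 4.87). None of the mesothelial markers that still had enough UMIs to be tested passed. The cells were removed for their UMIs of 7 such markers, so this loss was largely set by the removal and is no result. The calls of Rspo1, Clu, Pcolce, F3, Sdc4, Krt18 and Heg1 did not remain.

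Thymocyte markers summed to 47.7 and 100 CPM in WT members and 5.24 and 93.5 CPM in Z/Z members, epithelial markers to 235 and 182 against 153 and 295 CPM, and myeloid markers to 19.4 and 12.8 against 11.8 and 29.8 CPM, all overlapping. Pericyte and smooth muscle markers summed to 72.6 and 38.5 against 196 and 80.2 CPM. None of the 2 thymocyte, 1 endothelial, 3 pericyte and smooth muscle and 1 myeloid marker genes that could be tested passed. Of 7 epithelial markers tested, Krt18 passed (10.6 and 2.62 against 30.3 and 67.7 CPM), a call lost without Z/Z 2.

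Whether a genotype difference was particular to the members was tested as the interaction of gate and genotype within libraries. Against Postn fibroblasts, 63 of 11660 genes had a difference that was higher in the members (0.54%) and 31 one that was lower (0.266%), 0.806% in all. Gxylt2, a xylosyltransferase acting on Notch, was at 169 and 180 against 190 and 174 CPM of library totals in the members while Postn fibroblasts went from 154 and 135 to 25.01 and 24.1 CPM (difference 2.70 ± 0.28, edgeR adjusted p = 0.00112). Sgcd, a sarcoglycan gene, was alike (2.38 ± 0.27, edgeR adjusted p = 0.00121). Sulf1, which removes sulfate groups from heparan sulfate, was at 1713 and 1696 against 887 and 1002 CPM in the members but at 384 and 265 against 625 and 802 CPM in Postn fibroblasts (-1.90 ± 0.23, edgeR adjusted p = 0.00217).

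Aspn differed from both other gates. It was at 70.9 and 57.2 CPM in WT and 148 and 110 CPM in Z/Z of Postn fibroblasts, opposite to the members (-2.42 ± 0.36, edgeR adjusted p = 0.00797). Of the genes named above, Tmtc2 (2.05, edgeR adjusted p = 0.0123), Cxcl2 (2.59, edgeR adjusted p = 0.0340), Gpc6 (-1.03, edgeR adjusted p = 0.0380), Ntn4 (-1.36, edgeR adjusted p = 0.0386), Rgs6 (-3.79, edgeR adjusted p = 0.0114) and Inpp4b (-5.25, edgeR adjusted p = 0.00882) also differed from Postn fibroblasts. Cxcl1 (0.38, edgeR adjusted p = 0.809) and Gm12840 (-0.21, edgeR adjusted p = 0.907) were not shown to differ. Of the adventitial programme only Ly6c1 passed of 33 genes (3.12, edgeR adjusted p = 0.0109), and it did not pass in the members themselves. The number of genes depended on Z/Z 1, with 18 in all without that library.

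Against Bmper fibroblasts 8 genes passed (0.0686%), 5 higher (0.0429%) and 3 lower (0.0257%) in the members. Ptx3 was at 1230 and 1598 CPM in WT members and 1778 and 1480 CPM in Z/Z members, whereas Bmper fibroblasts went from 11.6 and 19.4 to 366 and 335 CPM (difference -4.38 ± 0.29, edgeR adjusted p = 2.01e-06). Gas6, which binds the TAM receptors, rose in the members and was at 221 and 138 against 99.5 and 111 CPM in Bmper fibroblasts (2.74 ± 0.36, edgeR adjusted p = 0.00813). Ltbp4, Serpine2, Zbtb7c and Adgrl3 were the other genes with a higher difference and Aspn and Sulf1 those with a lower one. Leaving out WT 1, WT 2, Z/Z 1 or Z/Z 2 gave 58, 38, 12 and 72 genes.

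**Figure D4:**
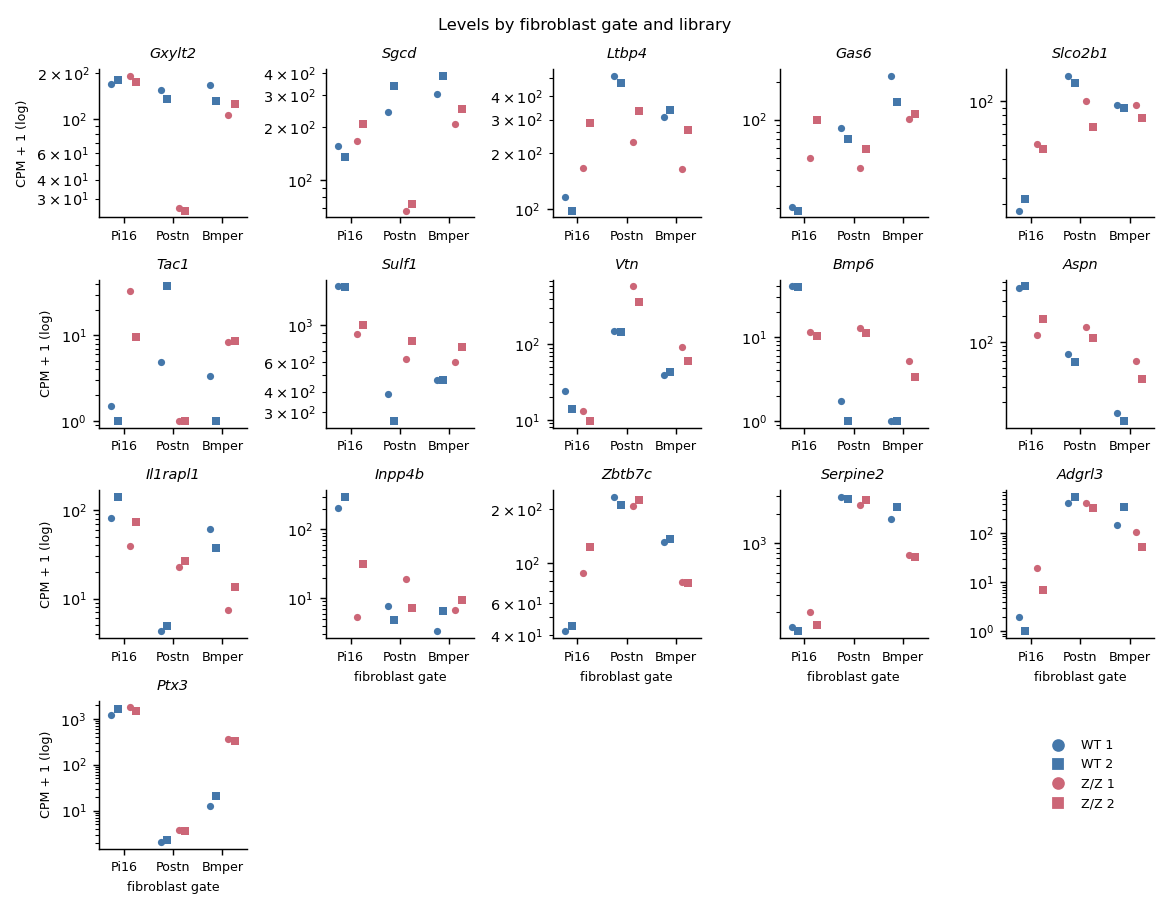
CPM + 1 of library totals (log axis) in Pi16, Postn and Bmper fibroblasts for the 16 genes named from the tests of gate by genotype (circles, replicate 1; squares, replicate 2; blue, WT; red, Z/Z). Ptx3 is at 1230 CPM or more in Pi16 fibroblasts of each library and goes in Bmper fibroblasts from 11.6 and 19.4 to 366 and 335 CPM.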

How the data were processed

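Droplet libraries of pooled thymi were made into UMI count matrices by the authors, with Cell Ranger 7.01 and mm10 (GRCm38.p5) as the processing notes per the labels write them. The deposited counts are not normalized. The labels name the v2 kit and the study's methods a v3 chip. From the filtered matrices, cells were gated as described above, 101 ribosomal protein and haemoglobin features of 32285 were left out, and UMIs were summed per library and gate. Sums were tested with edgeR 4.0.16 (R 4.3.3; TMM scaling, filterByExpr, quasi-likelihood test, Benjamini-Hochberg adjusted p under 0.05). The interaction was fitted on 12 sums with terms for library, gate and gate by genotype. The 18 gate genes were fitted but not counted. Gate levels are CPM of library totals without TMM. Total UMIs of the members ranged from 427244 to 2553285 per library, and intervals cover counting error only. DESeq2 1.42.0 and the other alternatives are compared in the closing section. Scripts were tested on simulated data. The named genes were the 12 higher and 12 lower with the smallest p. They were drawn from called genes without overlap between genotypes and with a mean of at least 20 CPM. Named too were the members of each list that passed, the 20 highest and 8 lowest by gate, the 10 most variable, and up to 6 per direction of each interaction test. The members and lists were chosen with earlier results of these data known. Replicate numbers do not pair the libraries, and doublet scores were used only in an alternative.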

Additional observations from a re-analysis of the deposited data

Results flagged for a closer look

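The genotype difference of 16 genes differed between Pi16 fibroblasts and another gate, by the interaction term of the edgeR fit. Values are the log2 difference of Z/Z against WT in Pi16 fibroblasts minus that in the other gate.

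Against Postn fibroblasts it was higher for Gxylt2 (2.70), Sgcd (2.38), Ltbp4 (1.91), Gas6 (2.73), the transporter gene Slco2b1 (2.29) and the tachykinin gene Tac1 (12.61). Tac1 had 0 UMIs in Postn fibroblasts of both Z/Z libraries, so the size of its difference is no bound, and its call was lost without Z/Z 1. It was lower for Sulf1 (-1.90), the vitronectin gene Vtn (-2.57), Bmp6 (-6.00), Aspn (-2.42), Il1rapl1 (-3.65) and Inpp4b (-5.25). Without Z/Z 1, the calls of Vtn, Bmp6, Aspn, Il1rapl1 and Inpp4b were lost as well. Without WT 1, those of Gas6, Slco2b1 and Vtn were lost.

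Against Bmper fibroblasts it was higher for Gas6 (2.74), Zbtb7c (2.09), Ltbp4 (1.63), Serpine2 (1.79) and Adgrl3 (5.10), and lower for Ptx3 (-4.38), Aspn (-3.42) and Sulf1 (-1.37). Of 9 alternatives Sulf1 kept its call in 4, Ltbp4 in 5 and Adgrl3 in 6. Without Z/Z 1 the calls of Ltbp4, Serpine2, Adgrl3 and Sulf1 were lost, without Z/Z 2 that of Sulf1, and without WT 1 those of Gas6, Zbtb7c and Aspn. Gxylt2 and Sgcd against Postn and Ptx3 against Bmper fibroblasts kept their calls in 9 of 9 alternatives.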

How the results depend on the processing

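Of 238 genes called in Pi16 fibroblasts, DESeq2 called 153, removal of barcodes found in more than 1 library left 100, thinning to 5000 UMIs gave 151 and no filter on low counts gave 655. Leaving out 1 library gave 180 (Z/Z 1), 224 (Z/Z 2), 676 (WT 2) and 792 (WT 1), with the lone library assumed to vary like the other group. The replicate block gave 162, although the numbers are only names (correlation of deviations -0.0346). The interaction with Postn fibroblasts went from 94 to 350 without the filter, 22 without the library term, and 18 to 152 when 1 library was left out. That with Bmper fibroblasts went from 8 to 203, 4 and 12 to 72 in the same order, and to 17 on thinning. The difference in share ran from -8.31 to 4.09 points when 1 library was left out. No fold change of the 24 named genes was reversed, and 17 of them kept their calls in each of 19 alternatives. The 24 genes were picked for the smallest p, so calls that they kept are no independent support. Camk1d, Gm42418, Marcks, Rgs6 and Ugcg lost their calls without shared barcodes, and Cxcl13 and Inpp4b under DESeq2. Removing shared barcodes left WT 2 with 11 members. When each shared barcode was kept once, which left WT 2 at 21, Camk1d, Gm42418, Marcks, Rgs6 and Ugcg kept their calls. The cause was not tested. WT 2, with 21 members, limits the depth.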
